A study of Drosophila melanogaster with 5 samples.

Results

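The vacuolar ATPase is the proton pump that acidifies lysosomes, endosomes and secretory vesicles. Its V1 sector sits in the cytosol and hydrolyses ATP, and its membrane sector, Vo, carries protons through a ring of small proteolipids. Drosophila encodes several subunits by families of paralogs, many of which are known for expression in the testis or in other restricted tissues, and the genes carry the symbol Vha. The Release 6 annotation of *D. melanogaster* holds 33 protein-coding Vha genes. An open reading frame (ORF) was assigned to a Vha gene when its span lay in the span of that gene and of no other protein-coding gene. By this rule 17 of the 33 Vha genes had a translated ORF in at least 1 of 5 lists from S2 cells. Among all 13962 protein-coding genes of the annotation, 6151 had one by the same rule.

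S2 cells are a haemocyte-like line derived from late embryos. Ribosome footprints, pieces of mRNA shielded by ribosomes during RNase digestion, were made in 4 conditions with 1 standard sample each: E-RNaseI (Thermo Fisher) in Buffer 2 with cycloheximide, A-RNaseI (Ambion) in Buffer 1 with cycloheximide, and the same pairs of RNase and buffer without it. The lists with cycloheximide are called treated and the standard ones without it untreated. Cycloheximide stalls elongating ribosomes and was given for 3 min before the harvest, at 100 µg/ml in the methods (mg/mL in the labels), while all cells, the untreated ones included, were washed and lysed in its presence. A further sample, here the deep list, had E-RNaseI, Buffer 2 and no cycloheximide by its labels, and none of the sources used here says whether it is the standard library sequenced further. The Tris-HCl was at 50 mM in Buffer 1 and 100 mM in Buffer 2 and the NaCl at 150 mM in Buffer 1 and lower in Buffer 2 (50 mM by the labels), so the RNase and the buffer cannot be told apart. With 1 sample per condition no spread between replicates was measured, no test was run, and every interval below covers counting error only.

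Each list gives a whole number per ORF, taken as its count of P-sites, the footprint positions assigned to the ribosome's peptidyl site. No ORF had fewer than 6 P-sites, so a gene that is not listed has no value here and not a value of 0. The P-sites summed once per gene were 1653667 (E-RNaseI) and 771181 (A-RNaseI) in the treated lists, 7832673 in the deep list, and 530623 (E-RNaseI) and 530499 (A-RNaseI) in the untreated lists. Of 8 haemocyte genes, 3 to 7 were called per list, while 27.7% to 43.8% of all protein-coding genes were called. Of these 8, srp, Pxn and crq were in every list and NimC1 in none. Hml (52 P-sites), eater (1155) and vkg (30) were called only in the deep list. Col4a1 had 29 P-sites in the treated E-RNaseI list, 98 in the deep list and 7 in the untreated A-RNaseI list, and was not called in the others. Of 7 genes of other cell types only bam was called, with 44 P-sites in the deep list and 8 in the standard E-RNaseI list without cycloheximide, while the ORFs at elav and vas lay in the spans of several genes and were not assigned.

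Most subunits of the pump were found in every list, usually through 1 paralog. Vha genes with a translated ORF numbered 15 (E-RNaseI) and 13 (A-RNaseI) in the treated lists, 17 in the deep list, and 15 in each of the untreated lists. Among all 13962 protein-coding genes, the share called was 40.1% and 31.0% in the lists with cycloheximide, 43.8% in the deep list, and 34.4% and 27.7% in the lists without, in the same order. All Vha ORFs were of the type that overlaps annotated coding sequence (CCDS), and none was an upstream or downstream ORF. In the paper's counts for the standard conditions nearly all ORFs of any gene were of this type, so this does not set Vha genes apart. The same 13 genes were called in all 5 lists: Vha68-2, Vha55, Vha44, Vha36-1, Vha26, Vha13 and VhaSFD of V1, and Vha100-1, Vha100-2, Vha16-1, VhaPPA1-1, VhaAC39-1 and VhaAC45 of Vo. Vha14-1 was missing only from the A-RNaseI list with cycloheximide. Never called were Vha68-3, Vha36-2, Vha36-3 and Vha14-2 of V1, and Vha100-3, Vha100-4, Vha100-5, Vha16-2, Vha16-3, Vha16-4, Vha16-5, VhaPPA1-2, VhaM9.7-a, VhaM9.7-d and VhaAC45RP of Vo. ORFs at VhaM9.7-c were in 4 of the lists but lay in the spans of other genes too and were not assigned. ORFs resting largely on reads that map to several places were removed from the lists before deposit, so a near-identical paralog could be missing for that reason, which was not tested.

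**Figure D1:**
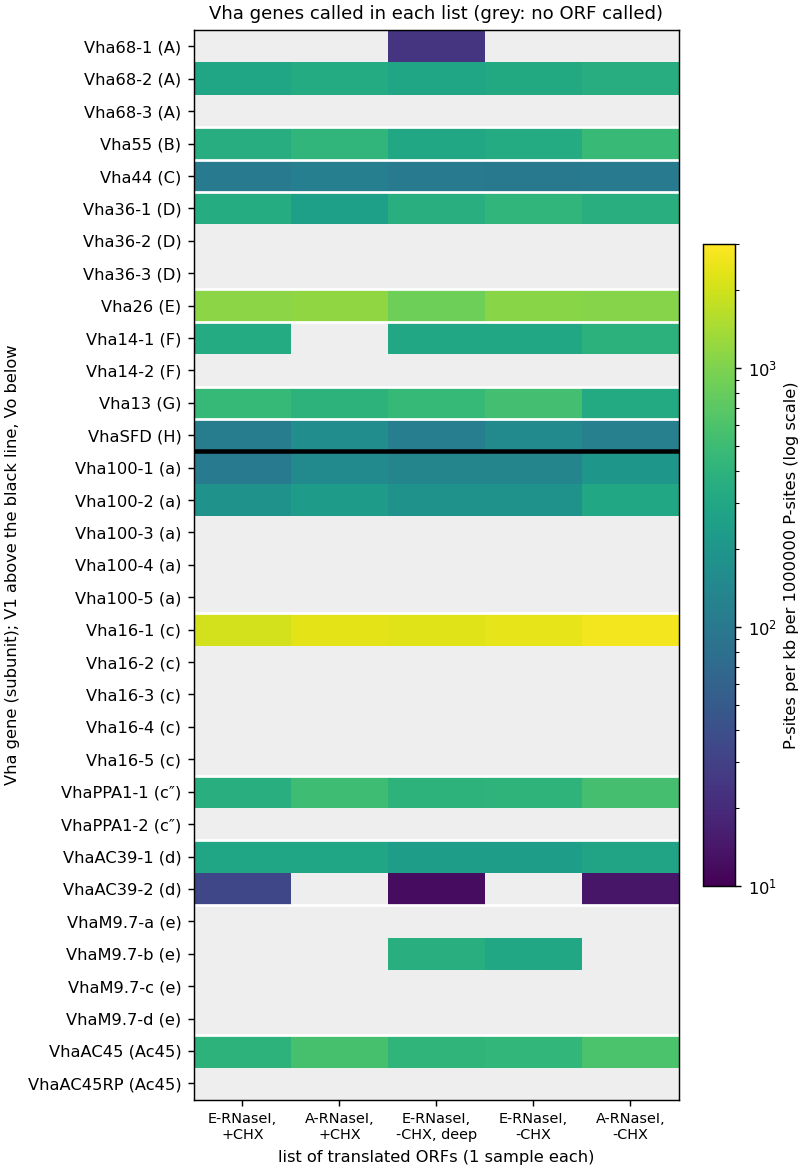
Each row is 1 of the 33 annotated Vha genes with its subunit in parentheses, each column 1 list (+CHX with and -CHX without cycloheximide), and the colour gives density, as P-sites per kb of ORF per 1000000 P-sites, on a log scale, with grey where no ORF was called. In families of paralogs colour is mostly in 1 row per list, apart from subunit a, where Vha100-1 and Vha100-2 are both coloured in all 5 lists.

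The Vha genes that were called carried dense footprints as a group, while those not called have no value. Levels are compared below as P-sites per kb of ORF per 1000000 P-sites, called density. Density joins the amount of an mRNA and the ribosomes on it, and fewer cells of a type and less RNA per cell cannot be told apart in these bulk lysates. The Vha genes called in a list together held 0.547% of all P-sites in the treated E-RNaseI list (95% Clopper-Pearson interval 0.536% to 0.558%) and 0.612% in the treated A-RNaseI list (0.595% to 0.630%). They held 0.550% (0.544% to 0.555%) in the deep list. Without cycloheximide they held 0.571% with E-RNaseI (0.551% to 0.591%) and 0.670% with A-RNaseI (0.648% to 0.692%), the highest share of the 5. The sums divided by cover called genes only, 3865 in the untreated A-RNaseI list and 5596 in the treated E-RNaseI list. The part of this in the shares was not tested. The median density of the called Vha genes lay between 302.0 and 347.9 over the 5 lists, against medians of 36.68 to 73.92 over all called genes. Among the densest 25% of the called genes of a list stood 11 of 15 called Vha genes (E-RNaseI) and 10 of 13 (A-RNaseI) in the treated lists. In the deep list these were 15 of 17, and in the untreated lists 13 of 15 (E-RNaseI) and 12 of 15 (A-RNaseI).

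**Figure D2:**
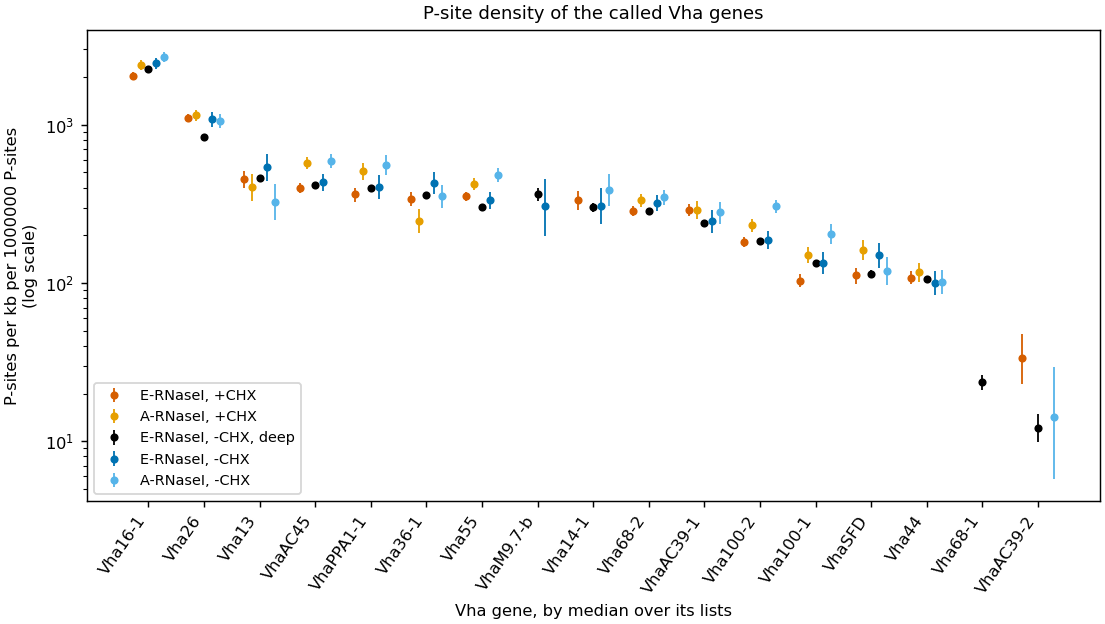
Points give the density of each called Vha gene in each list as P-sites per kb per 1000000 P-sites on a log scale, with exact Poisson 95% intervals, and genes run from the highest to the lowest median. Vha16-1 lies at 2051 or above in every list, Vha26 follows, and VhaAC39-2 and Vha68-1 lie under 40.

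Vha16-1 encodes the c subunit, the proteolipid that is repeated around the Vo ring, and was the densest Vha gene in every list. It had 1618 P-sites (E-RNaseI) and 781 (A-RNaseI) in the treated lists, 8415 in the deep list, and 619 (E-RNaseI) and 682 (A-RNaseI) in the untreated lists. Its density was 2051 and 2394 with cycloheximide, 2252 in the deep list, and 2446 and 2695 without, in that order, and it ranked between 68 and 84 among all genes of each list. The gene lies on the minus strand of chromosome arm 2R, and its ORF spans 3 exons. The other 4 genes of this subunit were not called in any list.

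Vha26, on 3R at 5591763 to 5595356, encodes subunit E of the V1 peripheral stalk and was second, with a median density of 1082 and a range of 843.2 to 1155. Its intervals overlapped those of Vha16-1 in no list. Vha13, subunit G of the same stalks, had a median of 454.8 and ranged between 327.6 with A-RNaseI and 542.3 with E-RNaseI, both without cycloheximide. The stalk proteins E and G pair in the complex, and the density of Vha26 was higher than that of Vha13 in each list, with intervals apart.

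The catalytic head of V1 is built from subunit A, which hydrolyses ATP, and subunit B. Vha68-2, the leading gene for A, had 870 and 474 P-sites with cycloheximide, 4108 in the deep list, and 313 and 340 without, E-RNaseI before A-RNaseI in each pair. Its density moved little between lists, at 284.7 to 347.9. Vha55, the only gene for B, had 858 and 481 P-sites with cycloheximide, 3501 in the deep list, and 260 and 374 without, with densities of 304.1 to 479.6. Median densities of these partner subunits, 320.2 for Vha68-2 and 353.0 for Vha55, lay close together. Vha55 was the higher of these 2 genes in every list, with intervals apart except in the E-RNaseI list without cycloheximide. There the densities were 333.3 (294.0 to 376.4) for Vha55 and 320.2 (285.7 to 357.8) for Vha68-2. Another gene for A, Vha68-1, was called only in the deep list. Summed with it, subunit A had a density of 308.3 there, against 304.1 for B.

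The central rotor of V1 is formed by D and F. Vha36-1 (D) had a median density of 355.0 and Vha14-1 (F) a median of 322.0 over the 4 lists that held it. Vha14-1 is a short ORF of 372 nt with 206 P-sites in the E-RNaseI list with cycloheximide, 880 in the deep list, and 61 (E-RNaseI) and 77 (A-RNaseI) in the untreated lists. In each of these 4 lists the intervals of the pair overlapped, except in the deep list, where the density was 361.6 for Vha36-1 (346.2 to 377.4) and 302.0 for Vha14-1 (282.4 to 322.6). Subunits C and H, which join or regulate the attachment of V1 to Vo, were the lowest of the called subunits in each list on the longest ORF of their gene, with median densities of 105.6 for Vha44 (C) and 120.0 for VhaSFD (H).

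In Vo, the accessory subunit VhaAC45 had a median density of 432.6, with 750 and 502 P-sites in the treated lists, 3703 in the deep list, and 261 and 357 in the untreated lists, E-RNaseI before A-RNaseI. VhaPPA1-1, the second type of ring proteolipid (c''), had a median of 406.0, below that of Vha16-1 in all lists. VhaAC39-1, subunit d, which links the rotor to the ring, had a median of 280.1. It lies on the X chromosome at 3880748 to 3882967. VhaM9.7-b, a small membrane subunit (e), was called only in the deep list, with 438 P-sites, and in the standard E-RNaseI list without cycloheximide, with 25, on an ORF of 153 nt.

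Summed over paralogs, density did not simply separate subunits present in several copies per pump (A, B, E, G and c) from those present once. With E-RNaseI and cycloheximide, the 5 multi-copy subunits ranged from 285.6 to 2051 with a median of 454.8, and the 8 single-copy subunits called ranged from 108.0 to 398.9 with a median of 329.5. The ranges overlapped in all 5 lists. Medians of the multi-copy subunits were 424.3 to 542.3 and those of the single-copy ones 291.5 to 372.6. Only c and E of the multi-copy subunits lay above every single-copy subunit in each list.

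Subunit a, the large Vo protein that holds the proton channels, was the family in which a pair of paralogs was well covered in every list. Vha100-2 had 744 P-sites (E-RNaseI) and 439 (A-RNaseI) in the treated lists, 3600 in the deep list, and 244 (E-RNaseI) and 399 (A-RNaseI) in the untreated lists. Vha100-1 had 435, 295, 2651, 166 and 185 P-sites in the same lists. Both genes lie on 3R, Vha100-2 at 18390323 to 18399169 and Vha100-1 at 29131193 to 29137980. Vha100-2 held 63.8% of the summed density of the family (E-RNaseI) and 60.6% (A-RNaseI) in the treated lists, 58.0% in the deep list, and 58.2% (E-RNaseI) and 60.0% (A-RNaseI) in the untreated lists. Its share of the P-sites themselves was 63.1% (60.3% to 65.9%), 59.8% (56.2% to 63.4%), 57.6% (56.4% to 58.8%), 59.5% (54.6% to 64.3%) and 68.3% (64.4% to 72.1%) in the same order. Vha100-2 was thus the larger of the pair in every list by either measure, with no interval reaching an equal split.

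Other families were led by 1 gene. For subunit d, VhaAC39-2 was called in 3 lists, with 31 P-sites with E-RNaseI and cycloheximide, 94 in the deep list and 7 with A-RNaseI without cycloheximide. VhaAC39-1 held 89.6%, 95.1% and 95.2% of the density of the family in these 3 lists. The called ORF of VhaAC39-2 was 555, 984 and 927 nt long in them. By P-sites VhaAC39-1 held 94.2% (91.9% to 96.0%), 95.4% (94.4% to 96.3%) and 95.7% (91.4% to 98.3%). For subunit A, Vha68-1 appeared only in the deep list, with 340 P-sites and a density of 23.57 (21.13 to 26.21), and Vha68-2 held 92.4% of the P-sites there (91.5% to 93.1%). The ORFs of Vha68-1 and Vha68-2 were of the same length, 1842 nt, and both genes lie on 2L, at 13000770 to 13004107 and at 12974322 to 12978607. Vha68-1 was not called in any of the 4 standard lists.

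Several transcripts of a gene can carry ORFs that share a stop codon, and here the called forms differed in length more than in P-sites. Vha44 had 3 forms in each list, 2442, 1260 and 1098 nt long in the standard lists. All 3 held the same P-sites within a list, 436 (E-RNaseI) and 220 (A-RNaseI) in the treated lists, 2071 in the deep list, and 130 (E-RNaseI) and 132 (A-RNaseI) in the untreated lists. The 1344 nt of the longest form that are not in the shortest, 1182 nt of them in neither of the other forms, thus added 0 P-sites in all 5 lists, also in the deep one. On the shortest form the density of Vha44 was 240.1, 259.8, 227.7, 223.1 and 226.6 in these lists, at least 2.16 times that on the longest form. On that form Vha44 stood above Vha100-2 in all lists but the untreated A-RNaseI one. VhaSFD had a 222 nt stretch in its longest form that added 0 P-sites in every list. Vha100-1 had 5 forms in each list but the A-RNaseI list without cycloheximide, and in the deep list these held 2627 to 2651 P-sites.

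The comparison with and without cycloheximide asked whether the drug changed which pump subunits carried footprints. Among genes called in both lists of a pair, no Vha gene differed by 2-fold or more with either RNase. Of all such genes 4.91% of 4721 did with E-RNaseI and 4.11% of 3409 with A-RNaseI. Genes called on 1 side only have no ratio. With E-RNaseI these were VhaAC39-2 (31 P-sites, treated list) and VhaM9.7-b (25, untreated list). With A-RNaseI they were Vha14-1 (77) and VhaAC39-2 (7), both in the untreated list. Ratios, with over without cycloheximide, are of density and of 1 sample to 1 sample. With E-RNaseI the 14 Vha genes had a median ratio of 0.908 (range 0.741 to 1.18), beside 0.934 over all genes. With A-RNaseI the 13 genes had a median of 0.959 (0.698 to 1.35), beside 0.952. The counting interval lay wholly below 1 for 4 of 14 Vha genes with E-RNaseI and 4 of 13 with A-RNaseI, against 17.7% and 15.7% of all genes. It lay wholly above 1 for 0 of 14 and 1 of 13, against 9.34% and 9.15%. Vha genes had more P-sites than most genes and hence narrower intervals, with a median of 436.0 in the E-RNaseI list with cycloheximide against 109.0 over all genes.

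Vha100-1, Vha16-1 and Vha36-1 had intervals below 1 with both RNases. These were 3 of the 13 Vha genes measured in both pairs, against 7.46% of 3286 genes. No Vha gene had intervals above 1 in both, against 3.71%. The median ratios of all genes also lay below 1, at 0.934 with E-RNaseI and 0.952 with A-RNaseI. The E-RNaseI interval of Vha36-1 held 0.934 and the A-RNaseI interval of Vha16-1 held 0.952. Only Vha100-1 of these 3 had density intervals wholly below the median in both pairs. Vha36-1, the rotor subunit, had a density of 340.9 with and 429.8 without cycloheximide in E-RNaseI, a ratio of 0.793 (0.658 to 0.960), and 247.7 with and 355.0 without in A-RNaseI, a ratio of 0.698 (0.548 to 0.888). Its ORF in the E-RNaseI list without cycloheximide was 684 nt in place of 738 nt, and by depth-scaled P-sites, the P-sites per 1000000 with no division by length, the E-RNaseI ratio was 0.856 (0.710 to 1.04). The ring subunit Vha16-1 had ratios of 0.839 (0.764 to 0.922) and 0.888 (0.801 to 0.986), and with its ORF of 423 nt in the treated A-RNaseI list, in place of 477 nt, the A-RNaseI ratio by depth-scaled P-sites was 0.788 (0.710 to 0.874). For Vha100-1 the ratios were 0.772 (0.644 to 0.929) and 0.740 (0.614 to 0.895), but its called ORF was shorter in the lists without cycloheximide, and by depth-scaled P-sites they were 0.841 (0.702 to 1.01) and 1.10 (0.910 to 1.33). VhaSFD went in opposite directions, at 0.741 (0.597 to 0.924) with E-RNaseI and 1.35 (1.06 to 1.74) with A-RNaseI. Its ORFs differed in length between the lists too, and by depth-scaled P-sites its ratios were 0.783 (0.631 to 0.977) and 1.28 (1.00 to 1.65).

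For Vha26 the intervals of the density ratio held 1, at 1.02 (0.898 to 1.16) with E-RNaseI and 1.09 (0.952 to 1.24) with A-RNaseI, while its ORF was 678 nt with cycloheximide in both and 519 nt with E-RNaseI and 633 nt with A-RNaseI without it. In depth-scaled P-sites, Vha26 had 748.6 with and 561.6 without cycloheximide in E-RNaseI, a ratio of 1.33 (1.17 to 1.52), and 783.2 with and 673.0 without in A-RNaseI, a ratio of 1.16 (1.02 to 1.33). Medians of this measure over all genes were 1.01 and 0.992. The deep list, whose ORF was again 678 nt, held 571.7 depth-scaled P-sites, close to the standard list without cycloheximide.

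**Figure D3:**
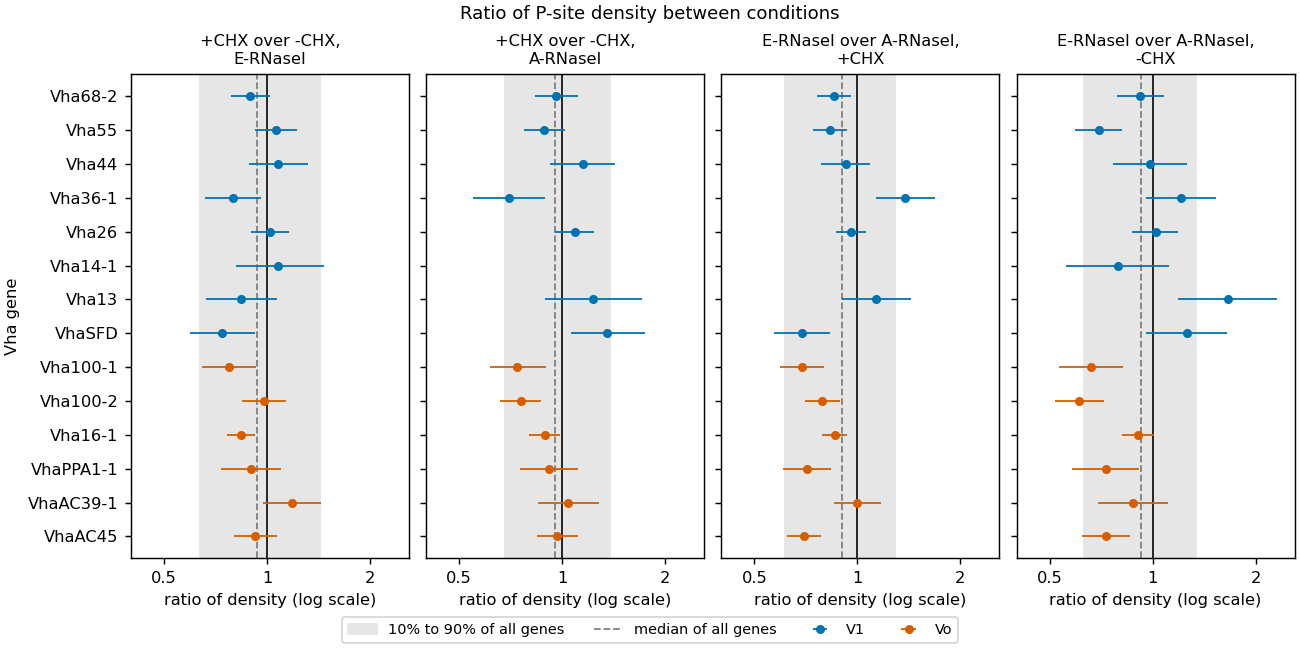
Each panel gives, for 1 comparison, the ratio of density of each Vha gene on a log scale with its 95% counting interval, V1 in blue and Vo in orange, beside the median and the 10% to 90% range of all genes. In the panels of E-RNaseI over A-RNaseI, where the median of all genes is at 0.901 and 0.927, the 6 Vo genes lie between 0.688 and 0.996 with cycloheximide and between 0.611 and 0.907 without it.

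Between the RNase and buffer conditions most genes of the series had lower densities with E-RNaseI than with A-RNaseI, 65.3% of all genes with cycloheximide and 62.2% without, and so had most Vha genes. With cycloheximide the 13 Vha genes had a median ratio, E-RNaseI over A-RNaseI, of 0.856 (0.687 to 1.38), beside 0.901 over all genes, and without it 14 genes had a median of 0.893 (0.611 to 1.66), beside 0.927. None of these Vha genes, called in both lists of the pair, reached 2-fold, against 4.66% of 4271 and 4.76% of 3655 genes. For the 6 Vo genes the median was 0.751 with cycloheximide and 0.730 without, and all 6 were below 1 in both, as were 5 of 7 V1 genes with cycloheximide and 4 of 8 without. Below the median of all genes lay 5 of the 6 Vo genes with cycloheximide (4 by depth-scaled P-sites) and 6 of 6 without, and scaled to that median VhaAC39-1 was at 1.10 with cycloheximide. For V1 it was 0.924 (7 genes, 0.687 to 1.38) with cycloheximide and 1.00 (8 genes, 0.695 to 1.66) without, so the sectors overlapped. By depth-scaled P-sites the medians were 0.751 for Vo and 0.924 for V1 with cycloheximide, and 0.804 for Vo and 0.952 for V1 without.

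Intervals wholly below 1 were found for 8 of 13 Vha genes with cycloheximide and 5 of 14 without, against 26.2% and 16.1% of all genes. Vha genes had more P-sites than most genes and hence narrower intervals, so these shares are not like for like. The median ratios of all genes also lay below 1, at 0.901 and 0.927. With cycloheximide the intervals of Vha16-1, Vha55 and Vha68-2 held 0.901, and the rest of the 8 lay wholly below it. Without cycloheximide all 5 lay wholly below 0.927. Vha55, Vha100-1, Vha100-2, VhaPPA1-1 and VhaAC45 were below 1 in both pairs by density, 5 of 13 against 10.6% of all genes, with the same limits. VhaAC45 had a density of 398.9 with E-RNaseI against 572.5 with A-RNaseI in the treated lists, a ratio of 0.697 (0.621 to 0.782), and 432.6 against 591.9 in the untreated lists, a ratio of 0.731 (0.621 to 0.860). VhaPPA1-1 had ratios of 0.713 (0.606 to 0.839) and 0.729 (0.580 to 0.913). For Vha100-2 they were 0.790 (0.701 to 0.891) and 0.611 (0.519 to 0.719). Vha100-1, at 0.688 (0.592 to 0.800) and 0.659 (0.531 to 0.817), had ORFs of different length in the lists without cycloheximide, and its ratio there by depth-scaled P-sites was 0.897 (0.723 to 1.11). The intervals of VhaAC39-1 held 1 in both pairs, at 0.996 (0.852 to 1.17) and 0.878 (0.693 to 1.11), and that of Vha16-1 in the pair without cycloheximide, at 0.907 (0.813 to 1.01).

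An interval wholly above 1 was found for 1 gene in each pair and for no gene in both, against 8.64% and 6.24% of all genes in the single pairs and 2.25% in both. With cycloheximide it was Vha36-1, with 416 P-sites in E-RNaseI against 141 in A-RNaseI, a ratio of 1.38 (1.13 to 1.68). Without cycloheximide it was Vha13, with 101 P-sites against 61, a ratio of 1.66 (1.19 to 2.31).

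The deep list was set against the standard list of the same labelled treatment to see how far levels moved between samples of 1 condition that differ in depth. Of 15 Vha genes none differed by 2-fold, against 2.62% of 4802 genes, and the median ratio, deep over standard, was 0.961 (0.757 to 1.19), beside 0.930. No interval lay above 1 (1.12% of all genes) and 3 lay below (11.8%). These 3 were Vha26 at 0.779 (0.693 to 0.879), Vha36-1 at 0.841 (0.715 to 0.996) and VhaSFD at 0.757 (0.628 to 0.919). All 3 had a longer called ORF in the deep list, and by depth-scaled P-sites their ratios were 1.02, 0.908 and 0.820.

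Where the start codon of an ORF was placed moved between lists for several subunits. The lists give 1 start per ORF, by the authors' rule the most upstream in-frame ATG separated from the next by 5 or more P-sites. Compared with its list without cycloheximide, the list with it had another start at 5 of 15 Vha stop codons with E-RNaseI and 5 of 14 with A-RNaseI, against 48.3% and 55.4% of the stop codons of all genes. VhaSFD counts here with 2 stop codons that share their starts. With E-RNaseI all 5 starts lay further upstream with cycloheximide, and with A-RNaseI 2 did and 3 lay downstream. The list with cycloheximide held 3.12 times the P-sites of the one without for E-RNaseI and 1.45 times for A-RNaseI. As the start rule rests on P-site counts, cycloheximide and depth cannot be told apart here. E-RNaseI against A-RNaseI gave another start at 3 of 14 with cycloheximide and 5 of 15 without, against 44.0% and 50.1%. Between the deep and the standard list 7 of 16 differed, against 48.8%, and all 7 lay upstream in the deep list. Of 14 Vha stop codons present in all 5 lists, 6 had the same start in each, against 27.7% of 3670 over all genes.

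Vha100-1 had the farthest shift among these, with the same start in both lists with cycloheximide and in the deep list, and starts 69 codons downstream with E-RNaseI and 277 codons downstream with A-RNaseI without cycloheximide. Vha26 had the same pattern, its start lying 53 (E-RNaseI) and 15 (A-RNaseI) codons downstream in the untreated lists. The untreated E-RNaseI list alone placed the start of Vha36-1 downstream, by 18 codons, and the A-RNaseI list with cycloheximide alone that of Vha16-1, also by 18 codons. For Vha44 and Vha100-2 the deep list had the more upstream start, by 21 and 11 codons, and the 4 standard lists shared the other. VhaSFD had 3 starts, in the deep list the most upstream, 13 codons downstream with E-RNaseI and cycloheximide and with A-RNaseI without it, and 42 codons downstream in the other 2 standard lists. VhaAC39-2, with few P-sites, started 143 codons downstream of its deep-list start with E-RNaseI and cycloheximide.

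**Figure D4:**
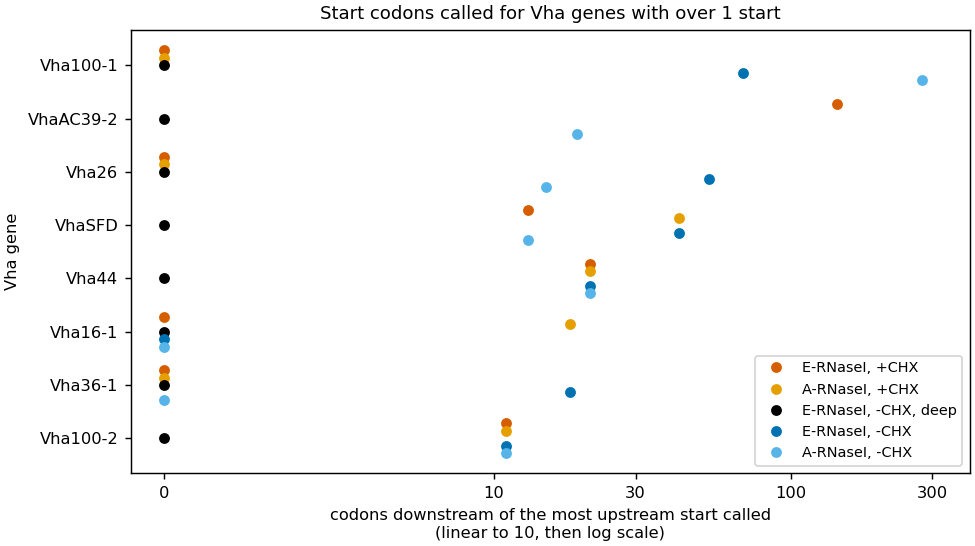
For the 8 Vha genes with more than 1 start, points give the distance in codons of the start called in each list from the most upstream one, linear to 10 and on a log scale beyond. The deep list is at 0 for all 8 genes, and the standard lists without cycloheximide lie farthest downstream for Vha100-1 and Vha26.

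Genes that act with the pump were read in the same way. ATP6AP2, the prorenin receptor homolog, an accessory subunit of the pump, had 450 and 243 P-sites with cycloheximide, 2093 in the deep list, and 142 and 166 without, E-RNaseI before A-RNaseI. Its density of 278.3 to 386.3 was in the range of the V1 and Vo subunits. Rbcn-3A, a regulator of pump assembly, had 369, 232, 1981, 126 and 119 P-sites in the same lists, on an ORF of 10278 nt in the deep list, and a density of 21.71 to 31.00. Mitf, the transcription factor that activates Vha genes, was called in 3 lists, with 21 P-sites with E-RNaseI and cycloheximide, 178 in the deep list and 9 in its standard counterpart. The ORFs at Rbcn-3B lay in spans of several genes and were not assigned. Of 8 lysosomal genes 6 to 7 were called per list, while 27.7% to 43.8% of all protein-coding genes were called. Lamp1, a lysosomal membrane glycoprotein, had a density of 1312 to 1450, between those of Vha16-1 and Vha26. The called lysosomal genes spread widely, with Npc1a at 31.48 to 55.22 and CtsL1 at 1382 to 2440, and Trpml was called in no list.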

How the data were processed

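The samples were 5 lists of S2 cells, 1 per group of the labels. The authors trimmed reads with cutadapt 2.10, removed rRNA and tRNA reads (Bowtie2 2.4.1 is named in the processing notes), mapped with STAR 2.7.5c to Release 6 and called translated ORFs with RiboTaper, dropping ORFs that rest largely on multimapping reads. The methods also describe subsampling alignments to about the same number of reads per sample. Whether these lists come from subsampled alignments is not stated, and their P-site totals differ. The deposited counts are whole numbers per ORF, taken as P-sites, with no normalization and repeated on each exon line, and 1 outer edge of an ORF can be off by 1 nt. Coordinates count from 1.

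With Python 3.11.15, numpy 2.4.6 and scipy 1.17.1, ORFs were assigned by position to the RefSeq table of 17872 genes, and at least 91.5% of the ORFs of a list lay in exactly 1 protein-coding gene. The longest ORF per stop codon and the stop codon with the most P-sites gave a gene's value. Density is P-sites per kb per 1000000 P-sites summed once per gene. Intervals are exact Poisson for densities and Clopper-Pearson for shares and ratios, at 95%. The scripts were tested on simulated data. Every Vha gene was named, and no gene outside the family except a fixed list of pathway genes and markers. The members and lists were chosen with earlier results of these data known. Alternatives were other ORF choices, scalings and P-site limits. No sequence is shown, as no genome or sequence table was used here.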

Additional observations from a re-analysis of the deposited data

Results flagged for a closer look

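VhaSFD, subunit H, differed in direction between the RNases: its ratio of density with over without cycloheximide was 0.741 for E-RNaseI and 1.35 for A-RNaseI. With 1 sample per condition the difference between these ratios was not tested. Its called start also moved, with 3 starts over the 5 lists, and the part of this in the ratios was not tested beyond the values by depth-scaled P-sites.

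VhaM9.7-c, a gene for subunit e, had ORFs of 252 nt on 3L at 4186517 to 4186767 whose span also lies in CG18675 and Teh2, so they were left out of the counts of Vha genes. They held 20 P-sites in each of the treated lists (12.2 to 30.9), 70 in the deep list (54.6 to 88.4) and 7 in the untreated A-RNaseI list (2.81 to 14.4). Which of the 3 genes these P-sites belong to was not tested.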

How the results depend on the processing

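No paired analysis was possible because each condition had 1 sample. Scaling to P-sites on the 1544 ORFs common to all lists, in place of all genes, raised the median density of Vha genes to 607.2 (E-RNaseI) and 565.7 (A-RNaseI) in the treated lists, 560.9 in the deep list, and 571.4 (E-RNaseI) and 575.5 (A-RNaseI) in the untreated lists, since the sum divided by is smaller. Without division by length the share of Vha100-2 was 68.3% in the untreated A-RNaseI list, where the ORF of Vha100-1 was short, and that of VhaAC39-1 was 94.2% in the treated E-RNaseI list. No Vha ratio was past 2-fold, so no such call could reverse. Of 69 ratios, 13 moved to the other side of 1 when scaled to the median ratio of all genes, 8 when scaled to common ORFs and 4 without division by length. Only in the last did this touch ratios whose interval had left out 1, those of Vha100-1 with over without cycloheximide for A-RNaseI (1.10) and Vha26 for the deep over the standard list (1.02). Of 69 ratios, 62 stayed within their intervals without division by length, an alternative chosen after seeing the data, as were ties between forms given to the shortest, under which 67 of 75 densities stayed within theirs. Set against the deep list, 12 of 14 cycloheximide ratios of E-RNaseI stayed within their intervals, and the exceptions were Vha26 at 1.31 and VhaSFD at 0.979. ORFs under 6 P-sites are not in the lists, so a low paralog could not be told from one without footprints. The authors' calling also required P-sites to be mostly in frame, so a missing gene need not have been low. Vha14-1, with 77 P-sites in the untreated A-RNaseI list, was not called in the treated one, which held more P-sites in all.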
